A study of Mus musculus with 4 samples.

Results

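The MYC-MAX-MXD network is a family of transcription factors that is described here through 10 genes, *Myc*, *Mycn*, *Mycl*, *Max*, *Mxd1*, *Mxd3*, *Mxd4*, *Mxi1*, *Mnt* and *Mlx*. They were chosen by name, with earlier results of these data known. All 10 were found among the 39186 genes of the deposited table. RNA was sequenced from LSK cells, the lineage-negative, Sca-1+ c-Kit+ cells in which hematopoietic stem and progenitor cells are enriched, sorted from the fetal liver of C57BL/6 mouse embryos. There were 2 WT and 2 *Pich* KO samples. *Pich* encodes the Plk1-interacting checkpoint helicase, a DNA translocase of mitotic ultrafine bridges, and lies on the X chromosome. According to the study the *Pich*-KO line carries a germline deletion of a few bases in the second exon. PICH is therefore lost from every cell of the embryo and not from blood cells alone. The study sorted cells from mid-gestation livers. The labels name neither the age of the embryos nor whether a sample was 1 embryo or a pool.

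MYC, MYCN and MYCL share a basic helix-loop-helix leucine zipper domain and bind DNA only as heterodimers with MAX, mostly at the E-box CACGTG. The MXD proteins and MNT compete for MAX, bind the same E-boxes and recruit SIN3 corepressor complexes, so that the balance between MYC and MXD dimers is known to set cell growth against differentiation. MLX is a second dimerization partner, which pairs with some MXD proteins, with MNT and with the nutrient-sensing factors MondoA and ChREBP. In blood, *Myc* and *Mycn* both act in stem cells, with overlapping functions, and *Mxd* genes are classically induced as cells leave the cycle.

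The network's own recognition sequence was searched for in the promoters of the members, since network proteins could bind there. RefSeq promoters of GRCm38.p6, 250 bases before to 50 after each start, were matched for 9 of the 10 members, with 11 promoters between them, and none was matched for *Myc*. The letters CACGTG, which read the same on both strands, stood in a promoter of 4 of these 9 members and of 8.09% of all 27025 genes with a promoter. Counted by promoter they stood in 4 of 11 and in 7.15% of all 32851. The windows below are printed 5′ to 3′ on the strand of the gene, with the E-box in capitals, and end at the motif for *Max*, where it spans the start site.
*Max*, chr12:76962246-76962278, minus strand: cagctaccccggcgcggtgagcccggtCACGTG
*Mxd4*, chr5:34187897-34187956, minus strand: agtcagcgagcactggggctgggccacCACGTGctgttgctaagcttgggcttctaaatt
*Mnt*, chr11:74830774-74830833, plus strand: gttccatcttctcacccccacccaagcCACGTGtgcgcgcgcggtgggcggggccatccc
*Mlx*, chr11:101087223-101087282, plus strand: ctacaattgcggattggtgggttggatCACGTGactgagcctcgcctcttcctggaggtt
The E-box began 3 bases before the start of *Max*, 40 before that of *Mlx*, 123 before that of *Mnt* and 219 before that of *Mxd4*. As given below, *Max* was higher in *Pich*-KO LSK cells, *Mxd4* was lower, and *Mnt* and *Mlx* did not pass the test, so the 4 genes with the motif did not share a direction.

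Values are normalized read counts, that is, reads on a gene divided by the size factor of its sample, from 14703215 to 20933919 reads on genes. *Pich* itself, listed as *Ercc6l*, had 1142 and 1232 normalized counts in *Pich*-KO against 772 and 661 in *Pich*-WT samples 1 and 2, and since its transcripts are still counted it does not check the labels. *Pich*-WT sample 2 had 0 reads on 4 Y-linked genes and 699 on *Xist*, against 1607 to 2848 and 4 to 13 in the other samples. By these reads *Pich*-WT sample 2 was female and the other samples were male. Values without *Pich*-WT sample 2 are given below for the members that passed the test and for some list counts. They are not given for the cell type markers or for single genes of the other lists. The sorted cells carried LSK markers, with *Kit* at 2328 to 4447 normalized counts and *Ly6a*, the Sca-1 gene, at 2978 to 3586 in *Pich*-KO and 901 to 1061 in *Pich*-WT. Of 12 LSK markers *Ly6a* was higher and 5 were lower, with log2 fold changes of −2.88 for *Procr*, −2.37 for *Hlf*, −2.10 for *Mecom*, −0.90 for *Slamf1* and −0.58 for *Gata2*, genes known from stem cells. Markers of other cells were also detected, and none was at 0 in all samples. The summed count of 12 macrophage markers was 8023 to 9149 in *Pich*-KO and 59362 to 60902 in *Pich*-WT, with 12 of 12 lower and *Vsig4* at 0 in *Pich*-KO sample 2. The sums were 31457 to 34824 against 136972 to 179008 for 12 erythroid markers, of which 9 were lower. They were 3582 to 5019 against 22861 to 32676 for 7 endothelial markers, of which 7 were lower. For 11 neutrophil markers they were 56856 to 103350 against 15209 to 17752, and *Mpo*, the myeloperoxidase gene, was the 1 gene of that list that was higher, at 54647 and 90492 against 10351 and 12533. Without *Mpo* the other 10 neutrophil markers summed to 2209 and 12858 against 4858 and 5219, and the groups overlapped. Megakaryocyte, hepatocyte and lymphoid markers were lower for 3 of 6, 7 of 10 and 3 of 11. By the limma fit described below, 42.0% of all genes averaging 50 or more were called, 19.5% higher and 22.6% lower. The lymphoid count of lower genes was near the last share and is not a result about that list. Of the 12 LSK markers, 1 higher was less than the share of higher genes. The 5 lower were more than the share of lower genes, and no test was run on that list. In bulk RNA fewer cells of a type and less RNA per cell cannot be told apart, and the part of other cell types in the results below was not tested.

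**Figure D1:**
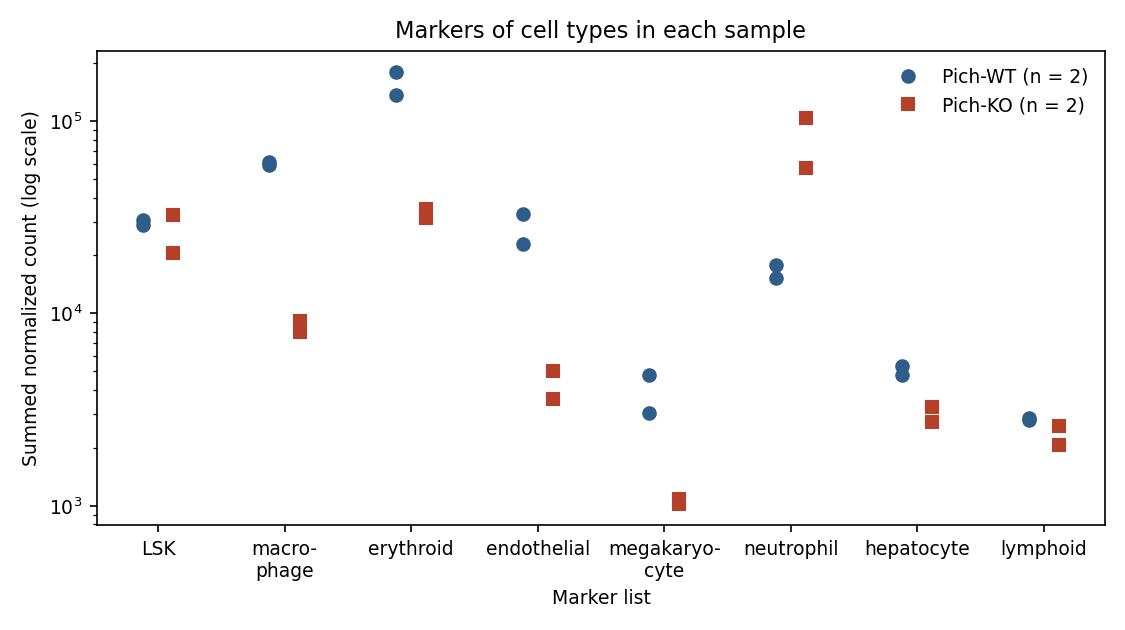
Summed normalized count (log scale) of 8 lists of cell type markers in each sample, circles for Pich-WT and squares for Pich-KO, 2 samples each. The macrophage, erythroid, endothelial and megakaryocyte sums lie lower in both Pich-KO samples, as do the hepatocyte and lymphoid sums, the LSK sums overlap, and the neutrophil sums lie higher through Mpo, without which they overlap (2209 and 12858 in Pich-KO, 4858 and 5219 in Pich-WT).

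The comparison of *Pich*-KO with *Pich*-WT LSK cells split the network. *Myc* and its obligate partner *Max* were higher in *Pich*-KO, whereas the other MYC paralogs, *Mycn* and *Mycl*, and all 4 *Mxd* genes were lower. *Mnt* and *Mlx* did not pass the test. By limma on log2(normalized count + 1), with adjusted p-values over all genes, 2 members were higher and 6 lower. Among all 32428 genes tested 17.2% were called, 7.58% higher and 9.60% lower. Among the 11794 genes that averaged 50 or more, as every member did, 42.0% were called, 19.5% higher and 22.6% lower. There was no overlap between the 2 groups for 9 of the 10 members and for 56.1% of all genes. That share covers all 32428 genes tested and was not computed for those averaging 50 or more. Both *Pich*-KO samples lay above both *Pich*-WT samples for 28.9% of all genes tested and 40% of those averaging 50 or more. The median log2 fold change of the members was −1.07, and that of all genes tested was 0.02. In this design the smallest two-sided p of an exact permutation test on 1 gene is 0.333, and the adjusted p-values depend on a spread that limma estimates over many genes together. When limma was given the same prior variance at every expression level, 0 members and 0 of all genes passed, although 5 members and 7377 genes had an unadjusted p under 0.05. edgeR on the recovered reads called 3 members higher and 6 lower, and 39.3% of its genes in either direction. DESeq2 called 2 higher and 6 lower, and 39.0% of its genes. Without *Pich*-WT sample 2, edgeR called 2 members higher and 6 lower, limma with 1 residual degree of freedom called 0, and the log2 fold changes of the 8 called members by limma were 1.10 for *Myc*, 1.17 for *Max*, −0.95 for *Mycn*, −1.64 for *Mycl*, −1.13 for *Mxd1*, −1.17 for *Mxd3*, −1.68 for *Mxd4* and −2.21 for *Mxi1*. Without *Pich*-WT sample 1, edgeR lost *Mycl*, *Max* and *Mxd3* (adjusted p = 0.0606, 0.0778 and 0.0879).

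**Figure D2:**
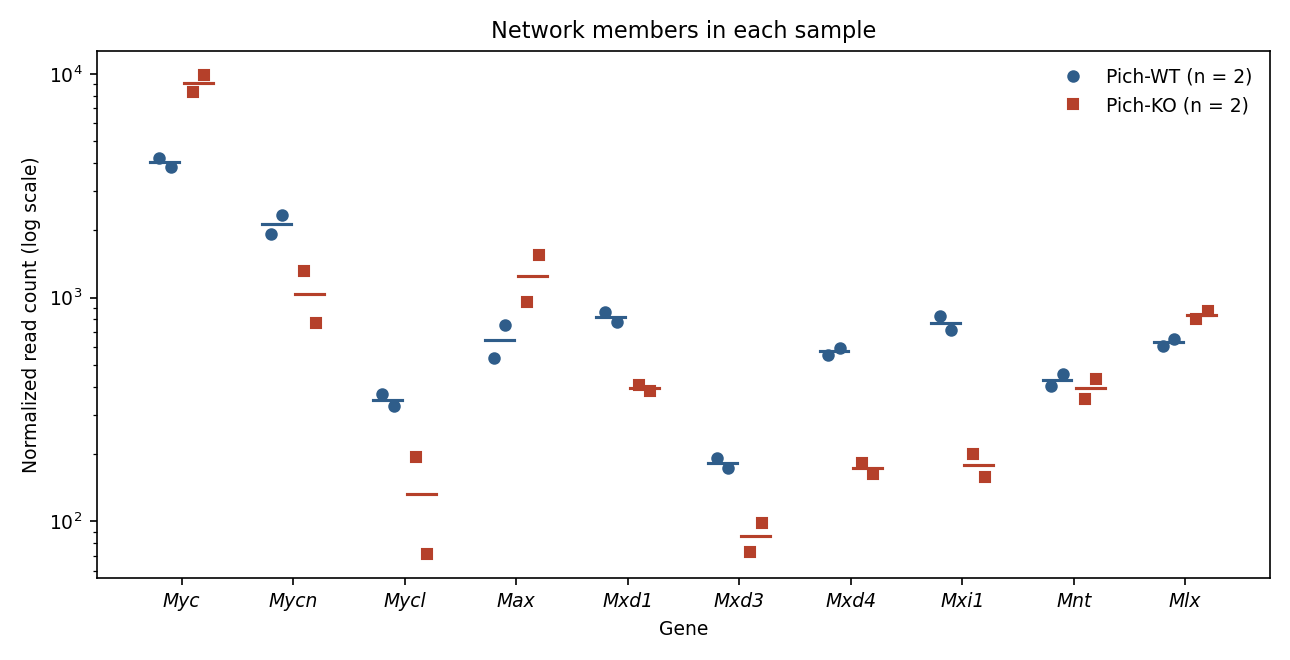
Normalized read count (log scale) of the 10 members in each sample, circles for Pich-WT and squares for Pich-KO, with a bar at each group mean. Both Pich-KO samples lie above both Pich-WT samples for Myc, Max and Mlx and below them for the other members except Mnt, whose groups overlap.

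*Myc* (ENSMUSG00000022346, chromosome 15, 61985391 to 61990374 on GRCm38) encodes the broadly acting MYC protein of growing cells. Its normalized counts were 8315 and 9910 in *Pich*-KO samples 1 and 2 and 4226 and 3854 in *Pich*-WT samples 1 and 2. The samples of a group lay close together, and the lowest *Pich*-KO value was well above the highest *Pich*-WT value. The means were 9113 ± 1128 (SD, n = 2) and 4040 ± 263 (SD, n = 2), a 2.26-fold difference and a log2 fold change of 1.17 (standard error, SE, of 0.11, limma adjusted p = 0.000294). Leaving out each sample in turn gave log2 fold changes from 1.04 to 1.30. The long noncoding gene *Pvt1*, which lies downstream of *Myc* and is named here after its values were seen, had 246 and 184 against 123 and 117 normalized counts (log2 fold change 0.83, limma adjusted p = 0.0465).

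*Mycn* (ENSMUSG00000037169, chromosome 12, 12936093 to 12941914) encodes N-MYC, which overlaps with MYC in function and is prominent in embryonic and stem cells. It went the opposite way to *Myc*, with 1311 and 767 normalized counts in *Pich*-KO against 1933 and 2328 in *Pich*-WT. The groups did not overlap, but the *Pich*-KO samples differed 1.71-fold from each other. The log2 fold change was −1.08 (SE 0.23, limma adjusted p = 0.0157). It was −0.69 without *Pich*-KO sample 2 and −1.47 without *Pich*-KO sample 1. Without a filter on low values *Mycn* did not pass (limma adjusted p = 0.0681).

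*Mycl* (ENSMUSG00000028654, chromosome 4, 122995652 to 123002485) encodes L-MYC, a weaker paralog that in blood is best known from dendritic cells. It had 193 and 71.6 normalized counts in *Pich*-KO against 370 and 328 in *Pich*-WT. The *Pich*-WT samples were alike, while the *Pich*-KO samples differed 2.70-fold, the widest spread of any member. The log2 fold change was −1.56 (SE 0.41, limma adjusted p = 0.0352), and it was −0.85 without *Pich*-KO sample 2 and −2.27 without sample 1. *Mycl* did not pass with a pseudocount of 0.1 (limma adjusted p = 0.0822) or without a filter on low values (limma adjusted p = 0.112).

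*Max* (ENSMUSG00000059436, chromosome 12, 76937269 to 76962201) encodes the partner through which the MYC proteins, the MXD proteins, MNT and MGA bind DNA, and it is usually regarded as a stably expressed gene. Its normalized counts were 961 and 1544 in *Pich*-KO against 539 and 758 in *Pich*-WT. The groups did not overlap, yet the samples of each group differed, 1.61-fold in *Pich*-KO and 1.41-fold in *Pich*-WT. The log2 fold change was 0.93 (SE 0.25, limma adjusted p = 0.0369). It was 0.59 without *Pich*-KO sample 2 and 1.27 without sample 1. This call was the least firm of the 8, since *Max* did not pass when the pseudocount was 0.1 (adjusted p = 0.0827), when low values were kept (0.113) or after scaling by library total (0.0716), all by limma.

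The 4 *Mxd* genes, which encode the MAX partners that oppose MYC, were all lower in *Pich*-KO. *Mxi1* (ENSMUSG00000025025, chromosome 19, 53310506 to 53375810), whose product is also called MXD2, showed the largest difference of the network. It had 200 and 158 normalized counts in *Pich*-KO against 825 and 720 in *Pich*-WT, a 4.32-fold difference. Both *Pich*-KO values were far below both *Pich*-WT values, and the log2 fold change was −2.11 (SE 0.19, limma adjusted p = 0.000265).

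*Mxd4* (ENSMUSG00000037235, chromosome 5, 34173883 to 34187720) encodes an MXD protein that is typically found in differentiating and resting cells. It had 183 and 164 normalized counts in *Pich*-KO against 556 and 596 in *Pich*-WT, a 3.32-fold difference. The samples of a group differed by at most 1.12-fold, and the log2 fold change was −1.73 (SE 0.17, limma adjusted p = 0.000459). *Mxd1* (ENSMUSG00000001156, chromosome 6, 86647042 to 86669161), the founding member of the family and a gene induced in myeloid maturation, had 407 and 383 against 864 and 777. The groups were again well apart, with a log2 fold change of −1.05 (SE 0.15, limma adjusted p = 0.0022). Over the samples left out in turn the log2 fold change stayed between −2.28 and −1.94 for *Mxi1*, between −1.81 and −1.65 for *Mxd4*, and between −1.13 and −0.98 for *Mxd1*.

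*Mxd3* (ENSMUSG00000021485, chromosome 13, 55325168 to 55329823) differs from the rest of the family in that it is known from cycling cells in S phase. It had the lowest mean counts of the network, 73.1 and 98.9 in *Pich*-KO against 192 and 173 in *Pich*-WT. The groups did not overlap, and the log2 fold change was −1.09 (SE 0.25, limma adjusted p = 0.0205). Its exons share 105 bases with *Prelid1* on the opposite strand, and the strand setting of the counting is not given in the sources used here. *Prelid1* had 5540 and 5924 against 6163 and 5188 normalized counts and did not pass (log2 fold change 0.02, limma adjusted p = 0.938). *Mxd4* and *Mxi1* likewise share 514 and 194 exon bases with *Gm42846* and *Gm10197* on the opposite strand, which were not analysed here.

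*Mnt* and *Mlx* were the members that did not pass. *Mnt* (ENSMUSG00000000282, chromosome 11, 74830920 to 74845725) encodes the most widely expressed MYC antagonist. It had 352 and 433 normalized counts in *Pich*-KO against 404 and 457 in *Pich*-WT, so the groups overlapped. The log2 fold change was −0.14 with a 95% interval from −0.55 to 0.28 (limma adjusted p = 0.686). *Mlx* (ENSMUSG00000017801, chromosome 11, 101087277 to 101092207) had 804 and 868 against 608 and 655. The groups did not overlap, and the log2 fold change was 0.40 (95% interval from 0.08 to 0.72, limma adjusted p = 0.0908). It did pass by edgeR on the recovered reads (adjusted p = 0.0394) and by limma on genes with at least 10 reads in every sample (adjusted p = 0.0395). *Mlx* shares 385 exon bases with *Psmc3ip* on the opposite strand, which was higher in *Pich*-KO (log2 fold change 0.77, limma adjusted p = 0.0237).

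**Figure D3:**
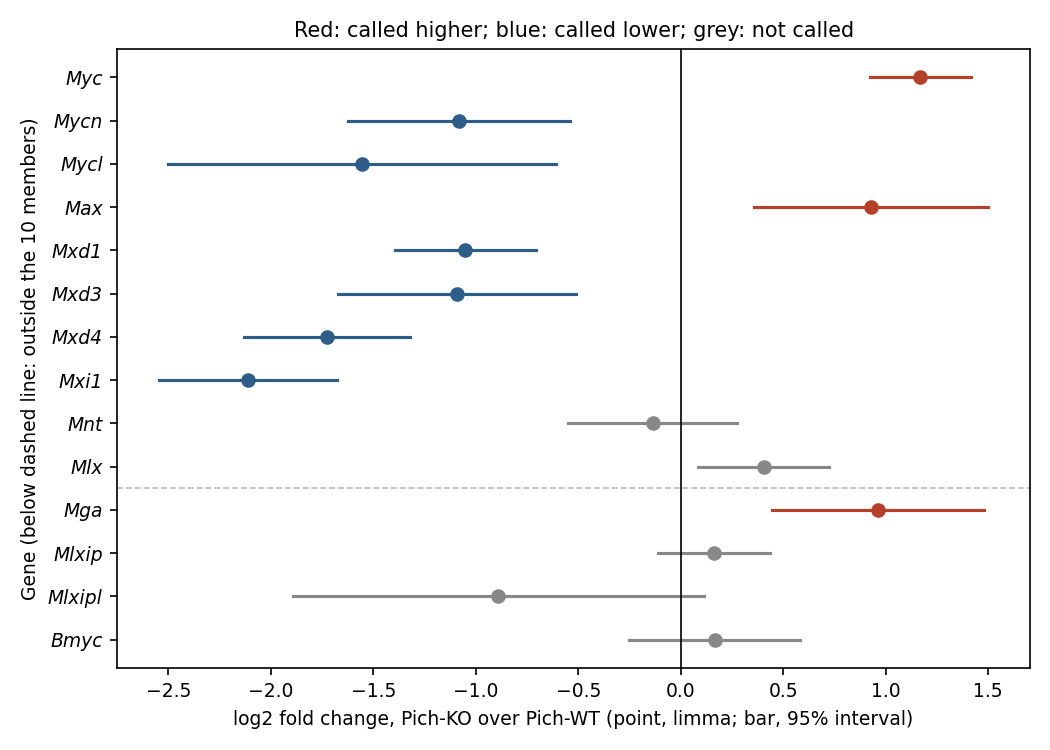
Fitted log2 fold change of Pich-KO over Pich-WT with its 95% interval (limma, 2 samples a group) for the 10 members and, under the dashed line, 4 further genes of the extended network. Myc, Max and Mga were called higher (red), 6 members were called lower (blue), and the grey genes were not called.

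Beyond the 10 members, 4 of 5 listed genes of the extended network were in the table, and 1 of them, *Mga*, was higher. Among genes averaging 50 or more 19.5% were higher, so the count is not a result about this list. *Mga* encodes a very large MAX partner that acts in a repressive Polycomb-type complex. It had 762 and 525 normalized counts in *Pich*-KO against 286 and 368 in *Pich*-WT (log2 fold change 0.96, SE 0.22, limma adjusted p = 0.021), and it did not pass without a filter on low values (adjusted p = 0.0661). The MLX partners and the last MYC paralog did not pass. *Mlxip*, which encodes MondoA, had 1912 and 1961 against 1862 and 1607 normalized counts. *Mlxipl*, which encodes ChREBP, had 17.5 and 12.5 against 25.8 and 31.0. *Bmyc*, a rodent MYC paralog without the DNA-binding domain, had 284 and 265 against 244 and 245.

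Levels of different genes were compared per length, as normalized counts per kilobase of the gene length given in the table. On this scale *Myc* was the most abundant member in every sample, at 3061 and 3647 per kilobase in *Pich*-KO against 1556 and 1418 in *Pich*-WT. Of the sum over the 10 members *Myc* made up 69.6% and 73.0% in *Pich*-KO samples 1 and 2 and 48.7% and 44.0% in *Pich*-WT samples 1 and 2. Ranks after *Myc* depended on the length used. Per gene length *Mycn* came second in *Pich*-WT, with 647 ± 84.7 per kilobase (SD, n = 2), ahead of *Mlx* with 316 ± 16.6 and *Max* with 180 ± 43.0. In *Pich*-KO the level of *Mlx* was 418 ± 22.9, that of *Max* was 348 ± 115 and that of *Mycn* was 315 ± 117, and these 3 differed by less than the SD of *Max* or *Mycn*. The remaining 6 members lay between 67.9 and 138 per kilobase on average in *Pich*-WT and between 20.4 and 84.9 in *Pich*-KO. *Mxi1*, at 138 in *Pich*-WT, would be at 113 with the exon length of GENCODE M21, which is longer than that of the table, and *Mxd1* was at 116. Per kilobase of coding length *Myc* was again the most abundant member in every sample, but *Max* came next in *Pich*-KO with 2535 ± 834, ahead of *Mlx* with 935 ± 51.1 and *Mycn* with 750 ± 277. In *Pich*-WT *Mycn* with 1537 ± 201 and *Max* with 1313 ± 313 differed by less than the SD of *Max*, and *Mxd1* with 1074, *Mxd4* with 919 and *Mxi1* with 770 all lay above *Mlx* with 706.

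The 4 *Mxd* genes together made up 13.0% and 11.8% of the summed level per kilobase in *Pich*-WT samples 1 and 2, and 3.31% and 2.87% in *Pich*-KO samples 1 and 2. The ratio of the 3 MYC paralogs to the 4 *Mxd* genes, as levels per kilobase within a sample, was 24.1 and 27.2 in *Pich*-KO against 5.37 and 5.79 in *Pich*-WT. The ratio of *Myc* to *Mycn* was 7.69 and 15.7 in *Pich*-KO against 2.65 and 2.01 in *Pich*-WT. In contrast, the ratio of *Myc* to *Max* was 11.5 and 8.50 in *Pich*-KO against 10.4 and 6.73 in *Pich*-WT, and the groups overlapped. These shares and ratios are descriptions of transcripts, and no test was run on them. Their size depended on the length used. Per coding length the 4 *Mxd* genes made up 30.3% ± 1.96 (SD, n = 2) in *Pich*-WT and 9.08% ± 1.34 in *Pich*-KO. The 3 MYC paralogs held 61.5% on average in *Pich*-KO and 47.7% in *Pich*-WT, in place of 78.9% and 69.2% per gene length. Their ratio to the *Mxd* genes was then 6.33 and 7.31 in *Pich*-KO, with 1.53 and 1.62 in *Pich*-WT.

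**Figure D4:**
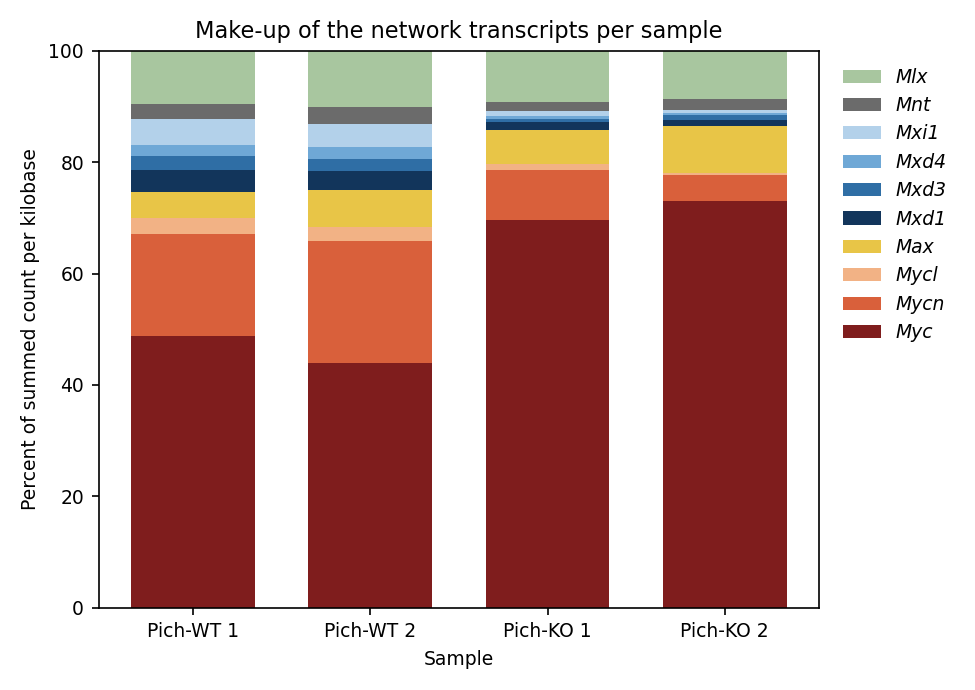
Percent of the summed normalized count per kilobase that each of the 10 members makes up, one stacked bar for each sample, with the gene length of the table. Myc takes 69.6% and 73.0% of the bars of the Pich-KO samples and 48.7% and 44.0% of those of the Pich-WT samples, and the 4 blue Mxd segments narrow in Pich-KO.

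Genes that textbooks give as raised by MYC were higher in *Pich*-KO almost throughout. Of 36 such genes, most of them factors of ribosome assembly, protein folding and synthesis of nucleotides and polyamines, 32 were higher and 0 were lower by limma, where 19.5% of all genes with a mean of at least 50 were higher. By edgeR 33 were higher and 0 lower. The list was chosen with earlier results of these data known, so these counts describe it and no test was run on them. The median log2 fold change was 0.93. *Cad*, which encodes the enzyme of the first steps of pyrimidine synthesis, rose most, from 981 and 697 normalized counts in *Pich*-WT to 5777 and 5189 in *Pich*-KO (log2 fold change 2.73, SE 0.16, limma adjusted p = 6e-05). *Hspe1*, a mitochondrial chaperonin gene, rose by a log2 fold change of 1.41 (limma adjusted p = 0.000372). The smallest rises past the threshold were 0.40 for *Cdk4*, a G1 kinase gene (adjusted p = 0.00588), and 0.56 for *Eif4a1*, a translation factor gene (adjusted p = 0.000842). The genes that did not pass were *Odc1*, *Ccnd2*, *Apex1* and *Tert*, with log2 fold changes of −0.11, 0.36, 0.43 and 0.17.

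Summed over these 36 genes, the normalized count was 365916 and 397395 in *Pich*-KO against 201736 and 192721 in *Pich*-WT samples 1 and 2, which is the order of *Myc* itself over the 4 samples. The 4 samples stood in that order for 15 of the 36 genes (41.7%), for 38.3% of all genes called higher and for 9.05% of all genes tested, so the share in the list was close to that among the genes called higher. Of 12 cycling markers 8 were higher and 0 lower, beside the 19.5% and 22.6% of genes averaging 50 or more, among them *Rrm2*, a subunit of ribonucleotide reductase (log2 fold change 0.53, limma adjusted p = 0.0337), and *Ccnb1*, the mitotic cyclin B1 (0.51, adjusted p = 0.00526). The smallest rises were 0.31 for *Mcm2*, a replication helicase subunit (adjusted p = 0.0177), and 0.38 for *Pcna*, the replication clamp (adjusted p = 0.0374). *Mki67* had 3440 and 4072 against 3956 and 3820 normalized counts and did not pass. The count of 8 fell to 5 when the pseudocount was 0.1, when low values were kept and after scaling by library total. By edgeR it was also 8, and it was 4 without *Pich*-WT sample 2 and 5 without *Pich*-WT sample 1.

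Of 12 genes described as lowered by MYC, 2 were higher and 4 lower, with a median log2 fold change of −0.11, and among genes averaging 50 or more 19.5% were higher and 22.6% lower. By edgeR without *Pich*-WT sample 1, 2 were lower in place of 4. *Cdkn1a*, which encodes the CDK inhibitor p21, rose from 552 and 404 normalized counts to 1819 and 1277 (log2 fold change 1.69, limma adjusted p = 0.0013), and *Nfil3*, a bZIP repressor gene, rose by 0.92 (adjusted p = 0.0047). *Cdkn1c*, which encodes the CDK inhibitor p57 of quiescent stem cells, fell from 983 and 652 to 115 and 77.3 (log2 fold change −3.08, limma adjusted p = 0.000249). *Cebpa*, a myeloid transcription factor gene, fell by 1.33 on the log2 scale (adjusted p = 0.000474).

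Of 5 targets of MondoA and MLX, 2 were higher and 2 lower, where 42.0% of genes averaging 50 or more were called in either direction. *Txnip*, the classical glucose-responsive target, had 2037 and 1793 normalized counts in *Pich*-KO against 4150 and 4523 in *Pich*-WT (log2 fold change −1.18, limma adjusted p = 0.000312), and *Klf10* had a log2 fold change of −0.88 (adjusted p = 0.00158). The glycolytic genes *Hk2* and *Pfkfb3* had log2 fold changes of 1.16 (adjusted p = 0.00214) and 1.10 (adjusted p = 0.00258).

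**Figure D5:**
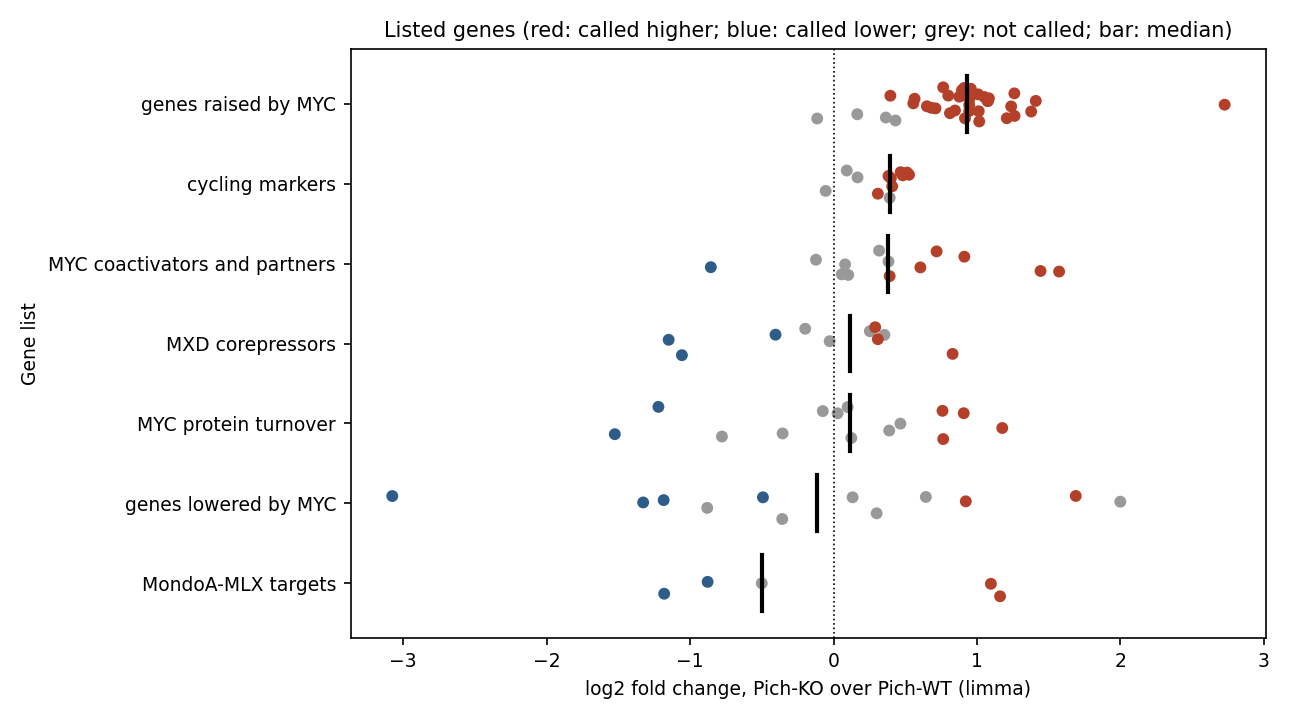
Fitted log2 fold change of Pich-KO over Pich-WT for each gene of 7 lists around the network (limma), one point a gene, red where called higher, blue where called lower and grey where not called, with a black bar at the median of each list. The points of the genes raised by MYC lie to the right of 0 except for 1 gene, whereas those of the genes lowered by MYC and of the MondoA-MLX targets fall on both sides.

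Among 13 coactivators and partners of MYC, 6 were higher and 1 lower, beside 19.5% and 22.6% of genes averaging 50 or more. By edgeR 8 were higher, and 4 without *Pich*-WT sample 2 or 5 without *Pich*-WT sample 1. *Hcfc1*, which encodes a chromatin cofactor, had 4625 and 3771 normalized counts in *Pich*-KO against 1422 and 1386 in *Pich*-WT (log2 fold change 1.57, limma adjusted p = 0.000154), and *Ruvbl2*, an ATPase gene of the TIP60 complex, rose by 1.44 (adjusted p = 0.000119). The smallest rise was that of *Ep400*, of the same complex (0.39, adjusted p = 0.0297).

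Of 10 corepressors through which the MXD proteins act, 3 were higher and 3 lower, where 42.0% of genes averaging 50 or more were called in either direction. The higher ones numbered 1 by DESeq2 and 4 by edgeR, and by edgeR 1 with *Pich*-WT sample 1 or sample 2 left out and 5 without *Pich*-KO sample 1. The lower ones numbered 1 when low values were kept. *Sap30*, a SIN3 complex subunit, rose (log2 fold change 0.83, limma adjusted p = 0.00395), as did the histone chaperone gene *Rbbp7* (0.31, adjusted p = 0.0204). *Ncor1*, a nuclear receptor corepressor, fell (−1.15, adjusted p = 0.00103), as did *Suds3*, another SIN3 complex subunit (−1.06, adjusted p = 0.0235). *Sin3a* had 1898 and 1874 against 1474 and 1476 normalized counts and did not pass (adjusted p = 0.0593), and it is named after its values were seen.

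Of 14 genes of MYC protein turnover, 4 were higher and 2 lower, a share near the 42.0% called among genes averaging 50 or more, so the count is not a result about this list and the values describe single genes. By edgeR 6 were higher and 2 lower, with 3 higher without *Pich*-WT sample 2 and 4 lower without *Pich*-KO sample 1, and by limma 1 was lower when low values were kept. *Fbxw7*, the F-box protein gene whose product marks phosphorylated MYC for degradation, had 179 and 102 normalized counts in *Pich*-KO against 309 and 324 in *Pich*-WT (log2 fold change −1.22, limma adjusted p = 0.0197). *Gsk3a*, of the kinase pair that phosphorylates MYC for FBXW7, fell by 1.52 on the log2 scale (adjusted p = 0.00586). Among the genes that rose were *Huwe1*, a ubiquitin ligase gene, at 1.18 on the log2 scale (adjusted p = 0.000962), and *Usp28*, whose product removes ubiquitin from MYC, at 0.91 (adjusted p = 0.0154).

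The genes nearest to the most raised and the most lowered member over the 4 samples were found by the distance between log2 profiles centred on their own means, among genes with a mean of at least 100. For *Myc* these were *Mrto4* (distance 0.0231), *Fnip1* (0.054) and *Zfp646* (0.0655), and for *Mxi1* they were *Zbtb46* (0.0431), *Mylk* (0.0862) and *Gnas* (0.0913). *Mrto4* had 2663 and 3190 normalized counts in *Pich*-KO against 1381 and 1253 in *Pich*-WT. Within a wider distance of 0.2 lay 118 of 10543 genes for *Myc* and 36 for *Mxi1*, so over 4 samples the genes named were not alone.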

How the data were processed

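TruSeq libraries of sorted fetal liver LSK cells, 2 *Pich*-WT and 2 *Pich*-KO samples, were sequenced. The authors deposited a table whose sample values are a signal: read counts on genes divided by 1 size factor per sample, so *Pich*-WT sample 2 is in whole numbers. Whole reads were recovered for 100% of values (tolerance 0.01 reads). The submitters' processing notes name Bowtie 0.12.2 and the builds mm8 and mm9, with no role; the counter, strand setting and annotation are not given in the sources used here. Starts and ends equalled those of GENCODE M21 for 97.8% of 39163 shared genes, and coordinates are therefore on GRCm38. The gene length column, in bases, equalled the union of M21 exons for 97.4%. The columns of group means, fold changes and p-values of the authors were not used.

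As the values are normalized, limma-trend (limma 3.58.1, R 4.3.3) was fitted to log2(value + 1) of 32428 genes averaging 1 or more, with Benjamini-Hochberg adjustment over all of them and a threshold of 0.05. Fold changes on this scale understate those of low genes. Alternatives were a pseudocount of 0.1, no filter, at least 10 reads in every sample, no variance trend, scaling by library total, a replicate block, leaving out each sample, and edgeR 4.0.16 with TMM and DESeq2 1.42.0 on the recovered reads. The procedure was tested on simulated data with changes of known size, which checks the code and not the calibration of the calls in these data.

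Text names all members and the extended network, and of each other list the 2 largest and 2 smallest log2 fold changes among genes called, with exceptions stated. The values of 1 further listed gene are not reported here. Members and lists were chosen with earlier results of these data known, so counts over them are descriptions and no list was tested as a set. Nothing says whether samples came from separate litters, so p-values speak for these samples only. Those of limma rest on a spread that is estimated over many genes together. Replicates differed beyond sampling noise (chi-square over degrees of freedom 17.7 for *Pich*-KO, 9.54 for *Pich*-WT).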

Additional observations from a re-analysis of the deposited data

How the results depend on the processing

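The members called, 2 higher and 6 lower, became 1 and 5 when the pseudocount was 0.1, 1 and 4 when low values were kept, 1 and 6 after scaling by library total, 3 and 6 with at least 10 reads in every sample or with edgeR, and 2 and 6 with DESeq2. Without a variance trend 0 members, 0 of all genes in either direction and 0 genes raised by MYC passed, since the prior variance alone changed. With limma and 1 sample left out, 1 residual degree of freedom remains, the lone sample is assumed to vary like the other group, and counts were 0 to 0 for members, for all genes and for the genes raised by MYC. edgeR with each sample left out, added after the data were seen, called 1 to 3 members higher and 4 to 6 lower, 31 to 34 genes raised by MYC, and 1717 to 3685 of all genes higher and 2270 to 3917 lower. Without *Pich*-WT sample 1 it lost *Mycl*, *Max* and *Mxd3* (adjusted p = 0.0606, 0.0778 and 0.0879). The log2 fold change of *Mnt* reversed without *Pich*-KO sample 1, to 0.011 by limma and 0.040 by edgeR, neither past the threshold, and was −0.29 by limma without *Pich*-KO sample 2. The other 9 members kept their direction in every alternative. The replicate numbers pair nothing the labels name (correlation of deviations 0.0117 over 11794 genes), and with the replicate block 2 members were higher and 6 lower, with 34 genes raised by MYC higher, and 3122 and 3874 of all genes higher and lower. Per coding length the MYC paralogs held 61.5% and 47.7% of the network in *Pich*-KO and *Pich*-WT. Scaling by library total moved all log2 fold changes by a median of −0.05.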
